A study of Mus musculus with 10 samples.

Results

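The genes described here are 5 chemokine genes that healthy mouse tissues make at rest, Cx3cl1, Cxcl12, Cxcl14, Ccl25 and Ccl17. They are 5 of the 17671 genes with a probe on the array. All probes annotated to them were taken, 10 of 46373, and 7 of the 10 passed the filter on dim signal, at least 1 for each gene. Brain RNA was hybridised to 10 Illumina Mouse-6 arrays, and each genotype contributed 5 of them, 1 per condition. All mice were of the C57/Bl6 strain and 10 weeks old, and carried either a knockout of Cd93 (KO), whose product is a transmembrane receptor found on endothelium and on myeloid cells, or the wild-type gene (WT). Ischaemia was made by middle cerebral artery occlusion, a stroke model with a temporary block of that vessel. The protocol called 48 h here blocked it for 60 min and let blood flow for 48 h before sampling, while for the 72 h protocol these times were 30 min and 72 h. Ipsilateral tissue, from the side of the closed vessel, and contralateral tissue, from the opposite hemisphere, had an array each, and a further array of each genotype held untreated brain. The labels name no sham operation, and they do not give the construct of the knockout or the number of clones or litters behind it.

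No group had a second array. The p-values below come from a linear model over all 10 arrays with condition and genotype as terms, so they set a difference between conditions against how alike it was in KO and WT, and a difference between genotypes against how alike it was across conditions. A second model, for 1 comparison named below, added a term for KO in ipsilateral tissue. The labels do not tell if pooled mice were used, or if ipsilateral and contralateral samples share their mice, in which case arrays would depend on each other. Between 12811 and 16310 probes per array were above background. The Cd93 probe was above background on all 5 WT arrays, against 2 of 5 KO arrays (6.23 and 6.24 in ipsilateral tissue), and Cd93 was lower in KO by 1.53 on the log2 scale (limma adjusted p = 0.00221). Levels below are log2 normalized intensities of a probe, and differences are differences of such levels, with a standard error (SE) from the model. A gene is called changed where its p, adjusted over the 9352 genes tested, lay under 0.05.

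Chemokines are small secreted proteins that steer cells through G protein-coupled receptors. Cx3cl1, also called fractalkine, stands on the surface of neurons as a membrane-bound protein with a chemokine head, and its receptor Cx3cr1 is carried by microglia. Cxcl12 guides and holds cells that carry Cxcr4 and is taken up by the scavenger receptor Ackr3. In brain it is made by endothelium, meninges and some neurons. Cxcl14 is made by epithelia and by some neurons, and Ccl25 by epithelium of the thymus and gut, where it acts through Ccr9. Ccl17 is made by dendritic cells and acts through the receptor Ccr4.

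The promoter windows of Cx3cl1 and Cxcl12 are shown because these genes had the called decreases of the set. Each window holds the 250 bases before the annotated transcript start, on the plus strand of GRCm38.p6, from RefSeq. That of Cx3cl1 lies at chr8:94771930-94772179 and that of Cxcl12 at chr6:117168285-117168534. Capitals mark matches, on either strand, to TATAAA and to the GC box GGGCGG.
Cx3cl1: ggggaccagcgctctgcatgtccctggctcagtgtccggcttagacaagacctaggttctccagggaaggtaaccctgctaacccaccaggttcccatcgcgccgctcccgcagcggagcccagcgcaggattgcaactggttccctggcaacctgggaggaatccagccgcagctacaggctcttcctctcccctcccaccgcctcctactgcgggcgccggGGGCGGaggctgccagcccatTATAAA
Cxcl12: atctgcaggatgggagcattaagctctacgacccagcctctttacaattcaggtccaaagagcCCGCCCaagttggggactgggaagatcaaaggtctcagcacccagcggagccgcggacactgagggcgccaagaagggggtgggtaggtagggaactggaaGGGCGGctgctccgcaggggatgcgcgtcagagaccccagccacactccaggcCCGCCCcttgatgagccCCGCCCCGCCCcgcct
The Cx3cl1 window held 1 TATAAA directly before the start and 1 GC box. The Cxcl12 window held 5 GC boxes, of which the last 2 overlap by the C they share, and no TATAAA. Of 32851 RefSeq windows of this length, 12.4% held TATAAA and 32.7% a GC box. The core letters of the hypoxia response element, ACGTG or GCGTG, were in 38.6% of all windows. They were found in the windows of Cxcl14 (2 matches) and Ccl17 (1 match) and in 1 of the 2 windows of Ccl25, and not in those of Cx3cl1 and Cxcl12. A match describes letters and not a bound site. By gene order in that annotation Cx3cl1 lies on chromosome 8 between Ccl22 and Ccl17, Ccl25 lies elsewhere on chromosome 8, Cxcl12 on chromosome 6 and Cxcl14 on chromosome 13. Ccl22, a chemokine that shares the receptor Ccr4 with Ccl17, was above background on no array, and no gene of the set lies on chromosome 2 with Cd93.

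In untreated brain 4 of the 5 genes were above background. The probes of Cx3cl1, Cxcl12 (2 of 3 probes), Cxcl14 (both probes) and Ccl25 (1 of 3 probes) were above background on all 10 arrays. Ccl17 was above background on 2 of 10 arrays, both from KO brain under the 72 h protocol, and not in untreated brain. For Ccl17 the data thus do not show a level in resting brain, and the gene entered the tests only through those 2 KO arrays, the ones with its highest readings. The plot of the 5 genes by array shows these levels, which cannot be compared between genes because each probe has its own brightness.

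**Figure D1:**
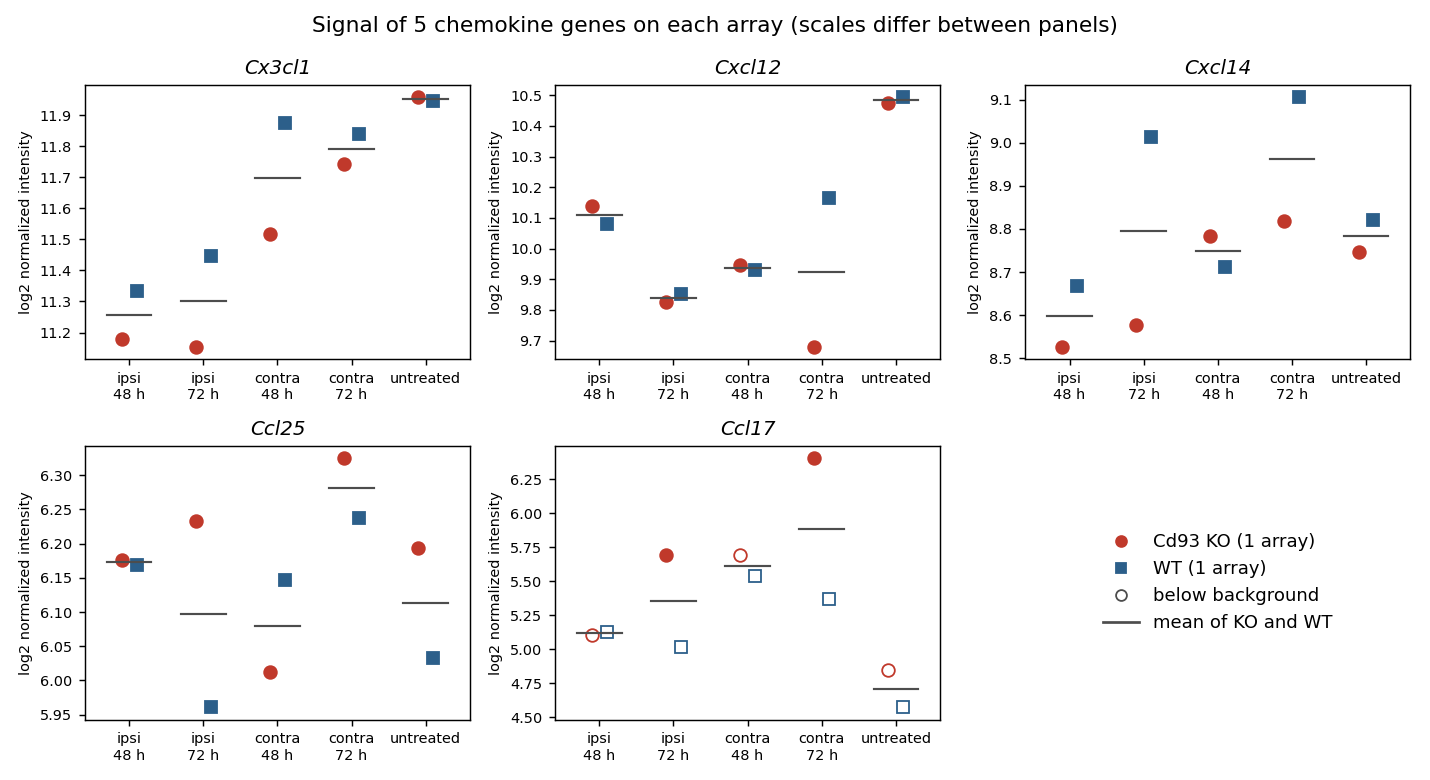
Log2 normalized intensity (y axis) of the probe that stood for each of the 5 genes, by condition (x axis), with 1 point per array for KO (circles) and WT (squares), open where the probe was below background, and a bar at the mean of both. Cx3cl1 falls into 3 steps that do not overlap, ipsilateral from 11.15 to 11.45, contralateral from 11.52 to 11.87 and untreated at 11.95 and 11.96, and Cxcl12 is below its untreated level on all 8 operated arrays.

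Cx3cl1 fell in the ipsilateral hemisphere under both protocols and in both genotypes. Under the 48 h protocol its level was 11.18 in KO and 11.33 in WT ipsilateral tissue, against 11.52 in KO and 11.87 in WT contralateral tissue. Under the 72 h protocol it was 11.15 in KO and 11.45 in WT ipsilateral tissue, against 11.74 in KO and 11.84 in WT contralateral tissue. All 4 ipsilateral arrays were below all 4 contralateral arrays. The difference was -0.44 ± 0.12 (SE) under the 48 h protocol (limma adjusted p = 0.0322), with a 95% interval from -0.71 to -0.17, which corresponds to 0.738 times the contralateral signal. Under the 72 h protocol it was -0.49 ± 0.12 (adjusted p = 0.0244), from -0.76 to -0.22, or 0.712 times. Cx3cl1 was the one gene of the 5 that was called in either hemisphere comparison, where 20.7% of all genes were called under the 48 h protocol (8.06% lower) and 14.4% under the 72 h protocol (4.13% lower). The raw intensities before normalization overlapped, from 2336.7 to 3102.5 in ipsilateral and from 2794.3 to 3682 in contralateral tissue.

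These hemisphere calls rested on few arrays. Without any 1 of the 4 arrays of its protocol the call was lost, with values from -0.55 to -0.33 and adjusted p from 0.0504 to 0.216 under the 48 h protocol, and values from -0.56 to -0.42 and adjusted p from 0.0572 to 0.196 under the 72 h protocol. Both calls were also lost when arrays were scaled by their median in place of quantiles, which put Cx3cl1 at -0.02 (adjusted p = 0.903) under the 48 h protocol, where the median of all genes moved to 0.43, and at -0.43 (adjusted p = 0.0741) under the 72 h protocol, where it moved to 0.07. Cx3cl1 lay below the median of all genes under both scalings.

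Untreated brain had the highest normalized Cx3cl1 signal, 11.96 in KO and 11.95 in WT. Its raw intensities, 3133.3 in KO and 3488.8 in WT, lay within the contralateral range. The difference of ipsilateral from untreated tissue was -0.78 in KO and -0.61 in WT under the 48 h protocol, and -0.80 in KO and -0.50 in WT under the 72 h protocol. Over both protocols the fitted difference between ipsilateral and untreated tissue was -0.67 ± 0.11 (adjusted p = 0.00116), with an interval from -0.91 to -0.44, or 0.627 times the untreated signal. In this comparison 29.1% of all genes were called, 12.4% lower and 16.6% higher, and the comparison was chosen after the data were seen. It was called without each of the 10 arrays in turn, with adjusted p up to 0.0266, and lost under median scaling (-0.28, adjusted p = 0.0711, where the median of all genes stood at 0.39). Contralateral tissue differed from untreated brain by -0.21 ± 0.11 (adjusted p = 0.383), with an interval from -0.44 to 0.03. The 4 contralateral values all lay below both untreated values, but the contralateral difference did not pass, and 1.43% of all genes were called there, 0.235% as lower. The contralateral arrays serve in this comparison and in the hemisphere comparison, and the untreated arrays in both comparisons with untreated brain, so these values are not independent of each other.

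The arrays hold whole tissue, so fewer neurons and less Cx3cl1 RNA per neuron cannot be told apart. The mean level of general neuronal markers was also lower in ipsilateral tissue. Untreated values of these markers lay within the contralateral range, whereas for Cx3cl1 they lay above it. Over 9 measured general neuronal markers the mean level was 10.79 to 10.86 on ipsilateral, 11.03 to 11.20 on contralateral and 11.09 to 11.12 on untreated arrays. Of these 9 genes 3 were called lower in ipsilateral tissue under the 48 h protocol and 2 under the 72 h protocol, with medians of -0.34 and -0.23, and Camk2a, a kinase of excitatory neurons, and Rbfox3, which marks neuronal nuclei, were called under both. Camk2a differed by -0.67 (adjusted p = 0.00584) and -0.43 (adjusted p = 0.0462), and Rbfox3 by -0.53 (adjusted p = 0.0158) and -0.44 (adjusted p = 0.0418) under the 48 h and 72 h protocols. Markers of striatal projection neurons were called lower for 5 of 6 and 6 of 6 genes, with medians of -0.77 and -1.23. Of all genes 8.06% and 4.13% were called lower. Drd2, counted under both protocols, was below background on both sides under the 48 h protocol. It entered the test only through contralateral arrays of the 72 h protocol and untreated brain, where it was high, so its calls are a description. Rgs9, a striatal regulator of G protein signalling, differed by -1.51 and -1.48, and Ppp1r1b, which encodes the striatal phosphoprotein DARPP-32, by -1.23 and -1.28 (all adjusted p of 0.000341 or below). None of 6 interneuron markers was called. Under the 72 h protocol all 6 had lower ipsilateral levels, from -0.36 for Cck to -0.01 for Pvalb. Under the 48 h protocol Gad1 and Pvalb (0.13) had higher ipsilateral levels and the others lower ones. The neuropeptide genes Cck (-0.30 and -0.36) and Npy (-0.04 and -0.20) had the largest differences averaged over protocols, while Gad1, an enzyme of GABA synthesis, had 0.40 (adjusted p = 0.0617) under the 48 h protocol and -0.24 under the 72 h protocol. The part of neuronal content in the Cx3cl1 difference was not tested.

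Cxcl12 fell in ipsilateral tissue relative to untreated brain and had no called difference between the hemispheres. Its brighter probe, of the transcript NM_013655, read 10.14 in KO and 10.08 in WT ipsilateral tissue under the 48 h protocol and 9.83 and 9.85 under the 72 h protocol. Contralateral tissue read 9.95 in KO and 9.93 in WT under the 48 h protocol and 9.68 in KO and 10.17 in WT under the 72 h protocol, and untreated brain read 10.48 in KO and 10.49 in WT. All 8 operated arrays lay below both untreated arrays, while ipsilateral and contralateral arrays overlapped. This order held after normalization only. The raw intensities were 939.9 to 1546.7 in ipsilateral, 790.2 to 1171 in contralateral and 1135.1 and 1293 in untreated tissue. Both ipsilateral arrays of the 48 h protocol (1546.7 in KO and 1357 in WT) were above both untreated ones. Ipsilateral tissue differed from untreated brain by -0.51 ± 0.12 (adjusted p = 0.0124), with an interval from -0.79 to -0.23, or 0.702 times the untreated signal. Contralateral tissue differed from untreated brain by -0.55 ± 0.12 (adjusted p = 0.0657), with an interval from -0.83 to -0.28, and was not called, though the estimate was no smaller than the ipsilateral one. With no background correction (-0.53, adjusted p = 0.0259), with a variance trend (adjusted p = 0.0156) or without the WT contralateral array of the 72 h protocol (-0.68, adjusted p = 0.0252) it was called. The ipsilateral call was lost without the untreated KO array (-0.46, adjusted p = 0.118) and under median scaling (-0.09, adjusted p = 0.638).

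Between the hemispheres Cxcl12 had a difference of 0.17 ± 0.14 with the 48 h protocol (adjusted p = 0.42), with an interval from -0.15 to 0.49. Under the 72 h protocol it differed by -0.08 ± 0.14 (adjusted p = 0.741), with an interval from -0.40 to 0.24, and there the genotypes went opposite ways, with 0.15 in KO and -0.31 in WT. Under median scaling the 48 h difference was called higher (0.65, adjusted p = 0.012), where the median of all genes stood at 0.43. A second probe, of the transcript NM_021704, read between 6.48 and 7.41. Its difference from untreated brain was -0.37 in ipsilateral tissue (adjusted p = 0.0644) and -0.56 in contralateral tissue (adjusted p = 0.0793), neither of them called. At that probe the hemisphere difference under the 72 h protocol was 0.28 (adjusted p = 0.265), the opposite sign to the brighter probe. The third Cxcl12 probe was above background on no array.

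Among markers of vessels and meninges, which can make Cxcl12, more genes were called higher than lower in ipsilateral tissue, as among all genes. Of all genes 12.7% were called higher and 8.06% lower under the 48 h protocol, and 10.3% and 4.13% under the 72 h protocol. Of 8 measured endothelial genes 4 were called higher and 1 lower in ipsilateral tissue under the 48 h protocol, and 4 higher and none lower under the 72 h protocol. Emcn, an endothelial sialomucin, differed by 1.47 and 1.05, and Cdh5, the cadherin of endothelial junctions, by 1.14 and 1.14. The mean level of the 8 genes was 8.34 to 8.84 on ipsilateral, 7.90 to 8.13 on contralateral and 8.05 to 8.09 on untreated arrays. Of 5 mural cell markers 1 was called higher under the 48 h protocol and 2 under the 72 h protocol. Kcnj8, a potassium channel of pericytes, was at least 1.78-fold and 2.26-fold higher, and the pericyte gene Rgs5 differed by 0.22 (adjusted p = 0.273) and 0.47 (adjusted p = 0.0467). In contralateral against untreated brain, where Cxcl12 had -0.55, Rgs5 was the 1 mural marker of 5 that was called (-0.70, adjusted p = 0.0278). None of the 8 endothelial genes or the 5 genes of fibroblasts and meninges was called there. Of all genes 0.235% were called lower in that comparison. The mean level of the 5 mural genes was 6.98 to 7.31 on ipsilateral, 6.75 to 6.86 on contralateral and 6.93 to 7.10 on untreated arrays. Of 5 genes of fibroblasts and meninges 2 and 3 were called higher in ipsilateral tissue, among them the matrix proteoglycan genes Dcn and Lum. Dcn differed by 1.63 and 1.51, and Lum was at least 1.37-fold higher under the 48 h protocol. Under the 72 h protocol Lum was above background on 1 of 2 ipsilateral arrays, so no fold is given. Kcnj8, Lum and Col1a1, which was called under the 72 h protocol, were above background only on ipsilateral arrays. They entered the test only through the side where they were high, so their calls are a description. The part of vessel and meningeal cells in the Cxcl12 signal was not tested.

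**Figure D2:**
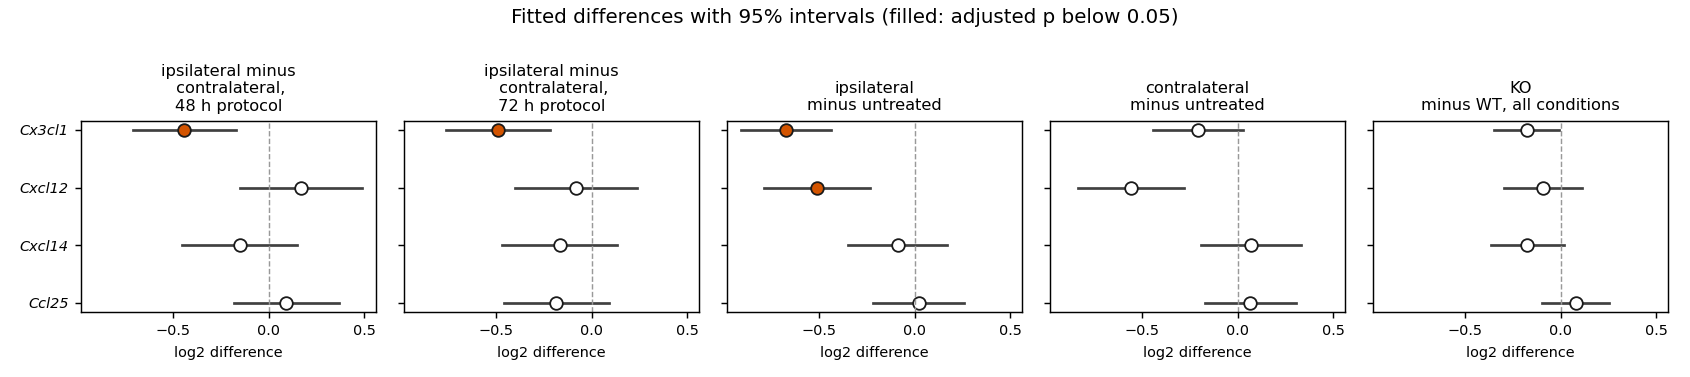
Fitted log2 differences (x axis) with 95% intervals for the 4 genes above background on all arrays (rows) in 5 comparisons (panels), filled where the adjusted p lay under 0.05. The filled points are Cx3cl1 in both hemisphere comparisons and against untreated brain, and Cxcl12 in ipsilateral against untreated tissue (-0.51).

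Cxcl14 had no called difference, and its 2 probes, both of the transcript NM_019568, differed in sign. The brighter probe read 8.53 in KO and 8.67 in WT ipsilateral tissue under the 48 h protocol and 8.58 and 9.01 under the 72 h protocol, against contralateral levels of 8.78 in KO and 8.71 in WT and of 8.82 in KO and 9.11 in WT. Untreated brain read 8.75 in KO and 8.82 in WT, within the range of both hemispheres. The hemisphere difference was -0.15 ± 0.13 (adjusted p = 0.451), from -0.45 to 0.15, under the 48 h protocol and -0.17 ± 0.13 (adjusted p = 0.444), from -0.47 to 0.13, under the 72 h protocol. The intervals allow a fall as large as that of Cx3cl1 under the 48 h protocol. The second probe gave 0.19 (adjusted p = 0.315) and -0.23 in the same comparisons, so a direction for Cxcl14 under the 48 h protocol depends on the probe. Under median scaling the brighter probe reversed as well (0.34, adjusted p = 0.124), where the median of all genes stood at 0.43.

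Ccl25 stayed within a narrow range near background, from 5.96 to 6.32 over the 10 arrays. It read 6.18 in KO and 6.17 in WT ipsilateral tissue under the 48 h protocol, against 6.01 in KO and 6.15 in WT contralateral tissue. Under the 72 h protocol it read 6.23 in KO and 5.96 in WT ipsilateral tissue, against 6.32 in KO and 6.24 in WT contralateral tissue, and untreated brain read 6.19 in KO and 6.03 in WT. No order of tissues held in both protocols. The hemisphere difference was 0.09 ± 0.12 (adjusted p = 0.627), from -0.18 to 0.37, and -0.18 ± 0.12 (adjusted p = 0.353), from -0.46 to 0.09. Against untreated brain it was 0.02 ± 0.11 in ipsilateral tissue (adjusted p = 0.904) and 0.07 ± 0.11 in contralateral tissue (adjusted p = 0.809). Under median scaling it was called higher in ipsilateral than in contralateral tissue under the 48 h protocol (0.51, adjusted p = 0.0104, where the median of all genes stood at 0.43) and in ipsilateral than in untreated tissue (0.37, adjusted p = 0.0218, where it stood at 0.39). The other 2 Ccl25 probes were above background on no array.

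Ccl17 was above background in ipsilateral KO tissue under the 72 h protocol (5.69) and in contralateral KO tissue under the same protocol (6.40). The other 6 operated arrays read 5.02 to 5.69 with detection p from 0.0106 to 0.0487, outside the threshold of 0.01. Untreated brain read 4.84 in KO and 4.57 in WT with detection p of 0.127 and 0.439. The operated readings did not overlap the untreated ones, but 6 of these 8 and both untreated ones were below background. Contralateral signal was above background on 1 of 4 arrays and untreated signal on no array, so no fold is given here. The fit called contralateral tissue higher than untreated brain (adjusted p = 0.0368), where 1.2% of all genes were called higher. The gene was tested only because that contralateral array and 1 other were high, so the call is a description. It was lost without the untreated KO array (adjusted p = 0.339), without the untreated WT array (adjusted p = 0.0944), without either contralateral array of the 48 h protocol (adjusted p of 0.0642 and 0.0745), and with no filter on dim probes (adjusted p = 0.132).

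Between the hemispheres no size is read from the Ccl17 fit, since in 3 of the 4 pairs of arrays it was below background on both sides. Fitted Ccl17 values appear further below only to show how the fit depends on the processing. In the fourth, KO under the 72 h protocol, it read 5.69 in ipsilateral and 6.40 in contralateral tissue. The fit called neither hemisphere comparison (adjusted p of 0.133 and 0.141), and it called the 72 h one without the WT contralateral array (adjusted p = 0.0227). Against untreated brain ipsilateral signal, above background on 1 of 4 arrays, was not called (adjusted p = 0.0615), and no fold is given here. The fit called it under median scaling (adjusted p = 0.0144) and with no background correction (adjusted p = 0.0389). It was also called without either contralateral array of the 72 h protocol and without the KO ipsilateral array of the 48 h protocol. Among 11 listed genes of dendritic and lymphoid cells 1 was measured, the dendritic transcription factor Zbtb46, at 7.95 to 8.36 in ipsilateral, 7.88 to 8.38 in contralateral and 8.41 to 8.66 in untreated tissue. Itgax, Flt3, Cd209a, Ccr7, Xcr1, Cd3e, Cd3d and Cd4 were above background on no array, so Zbtb46 was the one listed marker with a level beside the Ccl17 signal.

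None of the 4 genes above background on all arrays had a called difference between the protocols. The hemisphere difference under the 72 h protocol minus that under the 48 h protocol was -0.05 for Cx3cl1, with an interval from -0.43 to 0.33, -0.25 for Cxcl12, -0.02 for Cxcl14 and -0.28 for Ccl25 (adjusted p from 0.611 to 0.99). In this comparison limma called 0 of 9352 genes (0% of all), with 1018 at an unadjusted p under 0.05, and 0 to 7 under the other settings tried. The protocols differ in both durations at once, so the part of each cannot be told apart.

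No called difference between the genotypes was found for these genes either. Over all conditions Cx3cl1 differed between KO and WT by -0.18 ± 0.08 (adjusted p = 0.264), from -0.35 to -0.01, and was lower in KO in 4 of 5 conditions, with 0.01 in untreated brain. Cxcl14 differed by -0.17 ± 0.08 (adjusted p = 0.321) at its brighter probe and by 0.12 (adjusted p = 0.471) at the other. Cxcl12 differed by -0.09 ± 0.09 (adjusted p = 0.63), and its largest value, -0.48, came from contralateral tissue under the 72 h protocol. Ccl25 differed by 0.08 ± 0.08 (adjusted p = 0.63). Ccl17 was above background on 2 of 5 KO and 0 of 5 WT arrays, and no difference is given for it, since only those KO arrays brought it into the test. In this comparison 1.17% of all genes were called, 0.535% as higher. Of the 13 other measured chemokine genes 2 were called, Ccl21a and Ccl21b, at least 15.4-fold and 21.1-fold higher in KO. Both were above background on 5 of 5 KO and 0 of 5 WT arrays. They too entered the test only through KO arrays, so their calls are a description. The 2 Ccl21 genes are near-identical copies, so their probes may not tell them apart.

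The second model asked whether the difference between the genotypes was another in ipsilateral tissue. The difference between KO and WT in ipsilateral tissue minus that in contralateral and untreated tissue was -0.08 for Cx3cl1, from -0.45 to 0.30, 0.18 for Cxcl12, -0.19 for Cxcl14 and 0.10 for Ccl25 (adjusted p = 0.998 for all 4). Limma called 0 genes in this comparison (0% of all), with 359 at an unadjusted p under 0.05, and 3 in the value table of the authors. Since untreated tissue enters it, this is not the hemisphere difference alone. For Cx3cl1 the hemisphere difference was -0.34 in KO and -0.54 in WT under the 48 h protocol and -0.59 in KO and -0.39 in WT under the 72 h protocol, so the genotype with the larger fall was not the same in both. The hemisphere differences of the 6 probes above background on all arrays are plotted by genotype.

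**Figure D3:**
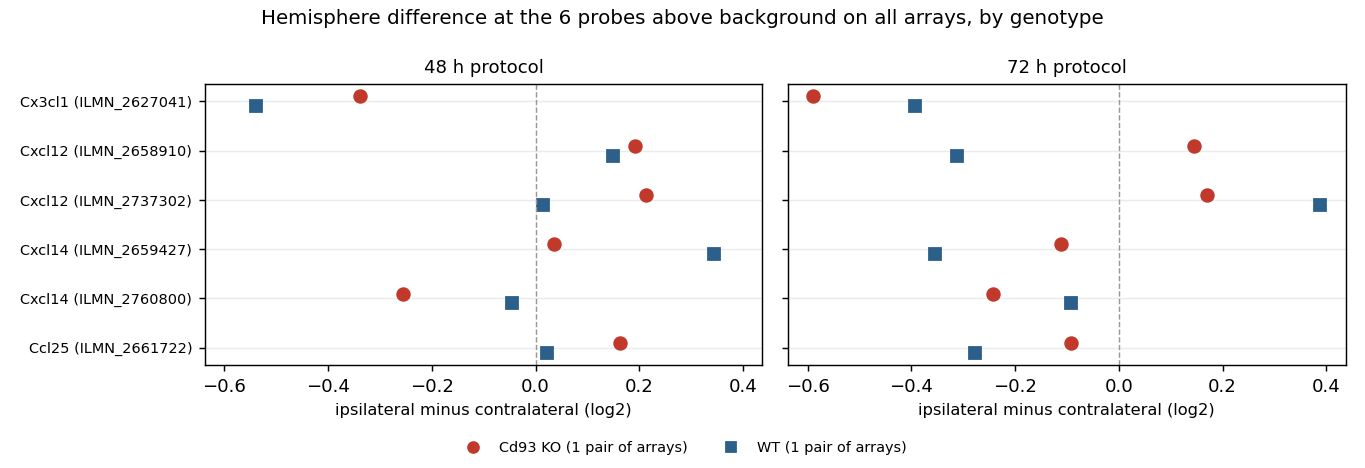
Ipsilateral minus contralateral log2 level (x axis) of the 6 probes above background on all arrays (rows) in KO (circles) and WT (squares) under the 48 h protocol (left) and the 72 h protocol (right), with 1 pair of arrays per symbol. Cx3cl1 lies left of 0 in all 4 pairs, from -0.59 to -0.34, and the 2 probes of Cxcl14 lie on different sides of 0 in KO and WT under the 48 h protocol.

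Cx3cr1, the receptor of Cx3cl1, rose in ipsilateral tissue under both protocols, and Cxcr4, the receptor of Cxcl12, under the 72 h protocol. Cx3cr1 read 8.68 in KO and 8.50 in WT ipsilateral tissue under the 48 h protocol and 8.65 and 8.83 under the 72 h protocol, above all contralateral values (7.17 to 8.07) and both untreated values (7.97 in KO and 7.91 in WT). It was called higher under both protocols, by 0.61 (adjusted p = 0.0267) and 1.28 (adjusted p = 0.00046). Cxcr4 read 7.35 in KO and 6.98 in WT ipsilateral tissue under the 72 h protocol, against 6.46 in KO and 6.21 in WT contralateral tissue, and was called higher there (0.83, adjusted p = 0.00623). Under the 48 h protocol it differed by 0.13 (adjusted p = 0.591). Of the atypical receptors that bind chemokines without G protein signalling, Ackr1 differed by 0.31 (adjusted p = 0.108) and 0.09 (adjusted p = 0.657) and Ackr2 by -0.16 (adjusted p = 0.411) and -0.38 (adjusted p = 0.0784). Ackr3, Ackr4, Ccr9 and Ccr4 were above background on no array. Of 4 measured receptors, 1 and 2 were thus called higher, beside 12.7% and 10.3% of all genes, and the list median was 0.22 and 0.46.

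**Figure D4:**
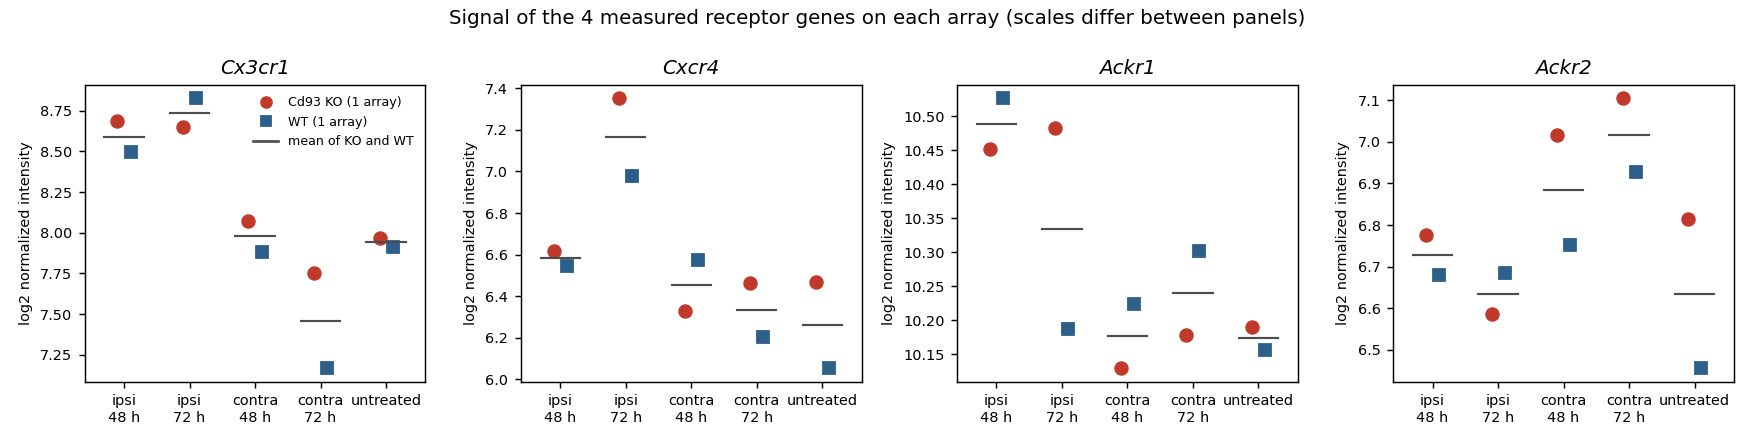
Log2 normalized intensity (y axis) of the 4 measured receptor genes by condition (x axis), with 1 point per array for KO (circles) and WT (squares) and a bar at the mean of both. All 4 ipsilateral Cx3cr1 values, from 8.50 to 8.83, lie above the other 6, and Cxcr4 is highest on the ipsilateral arrays of the 72 h protocol (7.35 in KO and 6.98 in WT).

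Markers of microglia, the cells that carry Cx3cr1, moved the same way. Of 3 measured markers 2 were called higher in ipsilateral tissue under the 48 h protocol and 3 under the 72 h protocol. The shares of all genes called higher there were 12.7% and 10.3%. The mean level of the markers was 7.74 to 8.85 on ipsilateral, 6.87 to 7.41 on contralateral and 6.77 to 6.89 on untreated arrays. Aif1, a calcium-binding protein of microglia and macrophages, differed by 1.01 and 1.89, and the lipid receptor gene Trem2 by 1.82 under the 72 h protocol. P2ry12, a marker of resting microglia, and Itgam were above background on no array. The part of cell number in the Cx3cr1 difference was not tested.

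Among enzymes that release or cut these chemokines, more were called higher than lower in ipsilateral tissue. Adam17, which sheds Cx3cl1 from the membrane, was called higher with each protocol (0.75, adjusted p = 0.0107, and 0.57, adjusted p = 0.0409), and Ctss, a lysosomal protease that can free Cx3cl1, was at least 2.23-fold higher under both. Of the metalloproteases that can cut Cxcl12, Mmp2 differed by 0.35 (adjusted p = 0.14) and 1.02 (adjusted p = 0.00192), Mmp14 by 0.63 (adjusted p = 0.0963) and 0.98 (adjusted p = 0.0257) and Mmp9 by 0.49 (adjusted p = 0.029) and 0.36 (adjusted p = 0.106). Dpp4, a peptidase that trims Cxcl12, was called lower under the 48 h protocol (-0.45, adjusted p = 0.027) and differed by -0.25 (adjusted p = 0.204) under the 72 h protocol. Over the list 3 of 6 measured genes were called higher and 1 lower under the 48 h protocol. Under the 72 h protocol 4 were called higher and 0 lower. The medians were 0.56 and 0.77 beside -0.02 and -0.05 over all genes. Of all genes 12.7% and 10.3% were called higher, and 8.06% and 4.13% lower. Ctss was above background only on ipsilateral arrays and entered the test only through that side, so its calls are a description. Adam10, another sheddase of Cx3cl1, was above background on no array.

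Of 10 measured genes of the signalling below these receptors, 4 were called higher and 2 lower under the 48 h protocol. Under the 72 h protocol 4 were called higher, and the medians were 0.03 and 0.09. Of all genes 12.7% and 10.3% were called higher, and 8.06% and 4.13% lower. Rac2 and Dock2 were above background only on ipsilateral arrays. They entered the test only through that side, where they were high, so their calls are a description. The largest increases were in genes of leukocytes. Rac2, a GTPase of leukocytes, was at least 2.74-fold and 3.28-fold higher, Dock2, its exchange factor, at least 1.95-fold and 2.77-fold, and Pik3cg, the kinase that G protein-coupled receptors use in leukocytes, differed by 1.01 (adjusted p = 0.0015) and 1.22 (adjusted p = 0.000357). The widely expressed Rac1 was called lower under the 48 h protocol (-0.75, adjusted p = 0.00612) and differed by 0.06 under the 72 h protocol. Of the 13 other chemokine genes measured, 10 and 8 were called higher and 0 lower, beside the 12.7% and 10.3% of all genes. Their medians were 1.73 and 1.86. Cxcl1, Ccl3, Ccl5, Ccl6, Ccl7, Ccl9 and Ccl11 were above background only on ipsilateral arrays, and Cxcl16 on 1 other array besides. These genes entered the test only through the side where they were high. The counts, the medians and their calls are thus a description. Cxcl1, which draws neutrophils, was at least 16.8-fold and 4.73-fold higher, and Ccl7, which draws monocytes, at least 7.10-fold and 5.06-fold. Ccl4 differed by 2.66 and 3.18 and Ccl12 by 3.10 and 2.69 (all adjusted p of 0.00573 or below). Ccl27a, Ccl21a and Ccl21b had lower ipsilateral levels, and none of them was called between the hemispheres. Ccl27a, above background on all 10 arrays, differed by -0.35 (adjusted p = 0.111) and -0.41 (adjusted p = 0.0882). Against untreated brain Ccl27a was called lower in ipsilateral tissue (-0.66, adjusted p = 0.00356), where 12.4% of all genes were called lower. The median of the 5 genes described here, Ccl17 included, was -0.15 and -0.18 between the hemispheres.

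Of the other marker lists, 3 of 6 astrocyte genes were called higher in ipsilateral tissue under each protocol, among them Gfap (1.61 and 1.46) and Aqp4 (0.79 and 1.07). Of all genes 12.7% and 10.3% were called higher there. Of 5 oligodendrocyte genes 1 and 2 were called higher, with Mag at 0.48 and 0.55 and Mog at 0.08 (adjusted p = 0.772) and 0.60. None of 4 choroid plexus genes was called, with Folr1 at 0.50 and -0.09, Ttr at 0.37 and -0.01, Kl at 0.29 and -0.02 and Clic6 at -0.14 and -0.25.

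For each of the 5 genes the 3 genes with the most similar pattern over the 10 arrays are named by Pearson's correlation, as a description, since all arrays share tissue, scaling and the split by condition. Nearest to Cx3cl1 were Caly (r = 0.98), a neuronal vesicle protein, Csnk1g2 (r = 0.97), a casein kinase, and Soga3 (r = 0.97). Caly had hemisphere differences of -0.27 (adjusted p = 0.115) with the 48 h protocol and -0.35 (adjusted p = 0.0651) with the 72 h protocol, and differed from untreated brain by -0.45 in ipsilateral tissue (adjusted p = 0.00664). Nearest to Cxcl12 were Skp1 (r = 0.93), a ubiquitin ligase subunit, Etl4 (r = 0.92) and Reep1 (r = 0.90), a protein of the endoplasmic reticulum. Nearest to Cxcl14 were Ift22 (r = 0.94), Slc6a7 (r = 0.93), the brain proline transporter, and Pmvk (r = 0.93), an enzyme of the mevalonate pathway. Nearest to Ccl25 were Asns (r = 0.87), asparagine synthetase, Got2 (r = 0.84), a mitochondrial aminotransferase, and Dedd2 (r = 0.82). Nearest to Ccl17, which was mostly below background, were Nanos2 (r = 0.96), Chrd (r = 0.93), which encodes chordin, and Spg7 (r = 0.92), a mitochondrial protease. Nanos2, a regulator known from the germ line, was above background on all 10 arrays and differed by -0.51 and -0.52 between the hemispheres and by 0.74 between contralateral and untreated tissue.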

How the data were processed

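RNA of 10 mouse brain samples, extracted with Trizol and labelled as cRNA per the labels, was measured on 1 array each. Per the file headers, the main deposited table gives each probe an intensity, not normalized and on the linear scale, and a detection p-value. The deposited p-value increases with intensity, so it was read as 1 minus p. A second deposited table holds intensities that the authors had quantile-normalized in 5 pairs of arrays, as its sorted values show. Since 4 pairs are the hemispheres of 1 genotype and protocol, it served for the hemisphere comparisons. It was also used in the model with a genotype-by-ipsilateral term. There untreated arrays enter as well, and pairs that were normalized apart are set against each other. The software of the authors is not given in the sources used here. Of 46373 probes, 29800 have 1 gene symbol, 10 have several and 16563 have none, and RefSeq genes matched 29746.

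With limma 3.58.1 in R 4.3.3, background was removed by nec (offset 16), followed by quantile normalization and log2. A probe needed a detection p under 0.01 on 2 arrays or more, and the brightest such probe stood for its gene, for 9352 genes. The model with 5 conditions and genotype left 4 residual degrees of freedom, and the one with a genotype-by-ipsilateral term left 3. Benjamini-Hochberg adjustment ran within each comparison. For a group with no detected array, the fold is a bound in which each of its arrays takes the probe's own level or, if higher, the dimmest detected level. The script was tested on simulated data. The alternatives left out the background correction or the filter, centred medians, took the second table, used a variance trend with a robust prior, dropped each array, read the other probes, or took the hemispheres of 1 genotype and protocol as a block. The 5 genes, the lists and the naming rule were chosen with earlier results of these data known. The rule named every probe of the 5 genes, every measured receptor, up to 4 called genes with the largest hemisphere difference of each other pathway list, up to 2 of each marker list, and the 3 genes most similar to each of the 5. Other list members are named where they were below background, to complete a short list, or where they went against the rest of their list.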

Additional observations from a re-analysis of the deposited data

Results flagged for a closer look

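The hemisphere difference of Ccl25 had opposite signs under the 2 protocols in both genotypes. It was 0.16 in KO and 0.02 in WT under the 48 h protocol and -0.09 in KO and -0.28 in WT under the 72 h protocol. The difference itself was -0.277 ± 0.17 (limma adjusted p = 0.611) and did not pass. The other 2 Ccl25 probes were below background on all arrays.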

How the results depend on the processing

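The labels give no replicate numbers and do not say that 2 hemispheres share mice. A fit with the ipsilateral and contralateral arrays of 1 genotype and protocol as a replicate block (4 pairs, 2 residual degrees of freedom), added after the data were seen, left all hemisphere calls of Cx3cl1, Cxcl12, Cxcl14 and Ccl25 as they were (Cx3cl1 adjusted p = 0.0194 and 0.0153) and called Ccl17, mostly below background, under both protocols (-0.495, adjusted p = 0.018, and -0.53, adjusted p = 0.0169). It called 2862 genes for 48 h, 1988 for 72 h (60.6% higher), 1 between protocols and 31 for KO minus WT of the hemisphere difference, where untreated tissue did not enter, none of them 1 of the 5 genes (Cx3cl1 0.0026, turned, adjusted p = 0.999). Of the values of the 5 genes under settings other than a left-out array or another probe, 162 kept direction and call, 9 became called, 5 lost the call and 4 turned. Median centring, which moved the median of all genes to 0.43 (48 h), 0.07 (72 h), 0.13 (contralateral minus untreated) and 0.39 (ipsilateral minus untreated), gave most of these. It put Cx3cl1 at -0.021, -0.43 and -0.28 for the 48 h, 72 h and ipsilateral minus untreated comparisons (call lost), Cxcl12 at 0.65 (called), 0.016 (turned) and -0.090 (call lost), Cxcl14 at 0.34 for 48 h and 0.35 against untreated brain (turned), Ccl25 at 0.51 and 0.37 (called), and Ccl17 at 0.59 against untreated brain (called). With no background correction Cxcl12 was called in contralateral minus untreated tissue (-0.53), as with a variance trend (-0.55), and Ccl17 in ipsilateral minus untreated tissue (0.33). Without a filter Ccl17 lost its contralateral call (1.04). Other probes turned Ccl25 (-0.094 and 0.090 between hemispheres, 0.18 between protocols), Cxcl14 (0.19 at 48 h, 0.12 for KO minus WT, 0.13 against untreated brain, 0.042 for KO minus WT of the hemisphere difference) and Cxcl12 (0.28 at 72 h, 0.17 between protocols, -0.13 for KO minus WT of the hemisphere difference, -0.036 at 48 h), and left Cxcl12 against untreated brain uncalled (-0.37 and -0.077, adjusted p = 0.0644 and 0.562). The causes were not tested.

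Counts of called genes moved as follows. Median centring gave 4925 for 48 h (99.1% higher, against 61.1% in the main setting), 94.1% higher for 72 h (against 71.4%) and 5231 for ipsilateral minus untreated (97.9% higher, against 57.2%). The value table of the authors gave 1267 for 48 h, 83.6% higher for 72 h, 3 between protocols and 3 for KO minus WT of the hemisphere difference. No background correction gave 207 for KO minus WT, 7 between protocols and 73.5% higher for contralateral minus untreated (against 83.6%). No filter gave 69 for KO minus WT and 5 for contralateral minus untreated, and a variance trend gave 224, 6 between protocols and 214 for contralateral minus untreated.

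Leaving out 1 array at a time gave 585 to 2024 genes for 48 h (main 1939; 585 to 1016 without an array of that protocol), 582 to 1368 for 72 h (main 1348; 582 without KO ipsilateral, 720 without KO contralateral and 882 without WT contralateral), 0 to 4 between protocols, 3 to 90 for contralateral minus untreated (main 134; 3 without the untreated KO array and 35 to 85 without any 1 other array except the 2 ipsilateral ones of the 72 h protocol), 44 to 136 for KO minus WT (main 109; 44 to 56 without any 1 operated array), 1274 to 2734 for ipsilateral minus untreated (main 2721; 1274 without the untreated KO array) and 0 to 4 for KO minus WT of the hemisphere difference. Cx3cl1 ranged over -0.55 to -0.33 for 48 h, -0.56 to -0.42 for 72 h, -0.16 to 0.061 between protocols and -0.18 to 0.0026 for KO minus WT of the hemisphere difference. Cxcl12 ranged over -0.33 to 0.16 for 72 h, -0.68 to -0.43 for contralateral and -0.56 to -0.46 for ipsilateral minus untreated, and -0.13 to 0.0073 for KO minus WT. Cxcl14 ranged over -0.30 to 0.0018 for 48 h, -0.18 to 0.15 between protocols and -0.0054 to 0.15 for contralateral minus untreated. Ccl25 ranged over -0.041 to 0.23 for 48 h, -0.039 to 0.081 for ipsilateral minus untreated and -0.031 to 0.23 for KO minus WT of the hemisphere difference. Ccl17 ranged over -0.91 to -0.15 for 72 h, -0.42 to 0.35 between protocols, 0.85 to 1.23 for contralateral and 0.39 to 0.67 for ipsilateral minus untreated, and -0.51 to 0.19 for KO minus WT of the hemisphere difference. Other calls that changed are given beside the results, most with their adjusted p or its range. Signal near background limits Ccl25 and Ccl17.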
